A study of Mus musculus with 12 samples.

Results

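Caveolae are small flask-shaped pits of the plasma membrane, and the 8 genes described here encode their main structural proteins: the caveolins Cav1, Cav2 and Cav3, the cavins Ptrf (now Cavin1), Sdpr (Cavin2) and Prkcdbp (Cavin3), and 2 membrane-shaping proteins, Ehd2 and Pacsin2. They were chosen by known role, with earlier results of these data in view, and were found by Ensembl gene ID. All 8 were among the 37583 gene IDs counted and among the 14904 genes tested. Because the list was drawn up with fold changes and adjusted p-values of these comparisons known, the fitted values below describe the 8 genes and are not independent evidence about them. RNA-seq was done on 12 libraries of Ocy454 cells, a mouse osteocytic line from long bones of mice that carried a temperature-sensitive SV40 T antigen and a GFP reporter driven by Dmp1. There were 3 libraries in each of 4 groups: control static, control FFSS, DKO static and DKO FFSS. The control cells are labelled as original cells, DKO cells as lacking both HDAC4 and HDAC5, and FFSS is fluid flow shear stress, given for 3 h by moving the culture dishes on an orbital platform after 14 days of culture at 37 °C. A single-cell sub-clone of the line was used per the study's methods. For HDAC5-deficient cells these methods refer to lentiviral CRISPR-Cas9 deletion, and how the DKO line itself was derived is not stated there. Control and DKO cells were different lines, so that effects of genotype and of line cannot be told apart. No source says that the 3 replicates were separate cultures, so p-values measure the spread between these libraries, which may be technical.

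Caveolin-1 and caveolin-2 insert into the membrane from the cytoplasmic side and form the inner coat of a caveola, while caveolin-3 takes the place of caveolin-1 in striated muscle. Cavins are cytosolic proteins that assemble an outer coat on top of the caveolins, with Cavin1 required for the coat to form. Ehd2, an ATPase, sits at the neck and holds the pit at the surface, and Pacsin2, an F-BAR protein, helps to bend the membrane there. Caveolae flatten when membrane tension rises and are known as a membrane reserve in cells that are stretched or exposed to flow.

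In the mm9 build, Cav2 (ENSMUSG00000000058) lay at chr6:17231185-17239115 and Cav1 (ENSMUSG00000007655) next to it at chr6:17256335-17291452, both on the forward strand. Cav3 (ENSMUSG00000062694) lay at chr6:112409495-112422865, far from both. Ptrf (ENSMUSG00000004044) was at chr11:100818047-100832201, Sdpr (ENSMUSG00000045954) at chr1:51345970-51359803, Prkcdbp (ENSMUSG00000037060) at chr7:112629121-112630711, Ehd2 (ENSMUSG00000074364) at chr7:16532326-16552916 and Pacsin2 (ENSMUSG00000016664) at chr15:83206037-83295036. None of the 8 shared exon sequence with another annotated gene. The promoters of the 3 caveolins are shown because this one family held both directions: Cav1 and Cav2 were lower in DKO cells and Cav3 was higher. Each is the 250 bases before an annotated start in RefSeq, in GRCm38.p6 coordinates, forward strand, 5′ to 3′: chr6:17306085-17306334 for Cav1 (the first of its 2 starts), chr6:17280935-17281184 for Cav2 and chr6:112459255-112459504 for Cav3. Capitals mark TATAAA and GGGCGG on either strand.
Cav1: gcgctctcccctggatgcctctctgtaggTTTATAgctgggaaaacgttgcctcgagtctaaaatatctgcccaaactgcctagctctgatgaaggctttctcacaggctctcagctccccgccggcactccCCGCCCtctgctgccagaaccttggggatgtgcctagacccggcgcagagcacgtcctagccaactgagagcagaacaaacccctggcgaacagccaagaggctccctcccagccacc
Cav2: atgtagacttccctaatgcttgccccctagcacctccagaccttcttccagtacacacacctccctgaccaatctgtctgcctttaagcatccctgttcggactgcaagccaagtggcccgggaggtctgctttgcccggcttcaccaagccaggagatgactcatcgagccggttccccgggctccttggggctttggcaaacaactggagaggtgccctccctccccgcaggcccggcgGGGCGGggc
Cav3: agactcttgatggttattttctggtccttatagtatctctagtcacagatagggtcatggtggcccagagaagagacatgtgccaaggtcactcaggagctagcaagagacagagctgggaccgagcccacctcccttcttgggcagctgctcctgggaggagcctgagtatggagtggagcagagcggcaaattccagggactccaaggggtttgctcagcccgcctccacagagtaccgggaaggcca

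The Cav1 window held TATAAA and GGGCGG, both on the reverse strand (read as TTTATA and CCGCCC), whose first bases lie 221 and 118 bases before the start. The Cav2 window held GGGCGG 9 bases before its start, and the Cav3 window held neither motif. RefSeq windows matched 7 of the 8 genes, Prkcdbp being the one without. GGGCGG was also present before the 2 starts of Ptrf (7 and 9 bases away), before Ehd2 (226 bases) and before the first of 3 Pacsin2 starts (55 bases). The windows of the other Pacsin2 starts, of the second Cav1 start and of Sdpr held neither GGGCGG nor TATAAA. Neither the CArG box (a serum response factor motif) nor the MEF2 motif matched in a window of these 7 genes. Among 32851 mouse windows of the same length, 32.7% held GGGCGG, 12.4% TATAAA, 1.47% the CArG box and 2.92% the MEF2 motif, on both strands and with overlaps between motifs allowed. These shares are per window, and a gene with several starts has several windows. The motifs are matches of letters, and binding was not measured.

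Between 17.6 and 19.2 M reads were assigned to genes in each library. One library stood apart: counts of control FFSS replicate 1 differed from those of replicates 2 and 3 with a chi-square per degree of freedom of 63.8 and 58.0, while other pairs within a group lay between 2.02 and 6.45. The share of uniquely placed reads outside annotated genes was 5.10 to 5.21% in control static and 7.07 to 7.14% in DKO static libraries, 5.87, 9.19 and 10.04% in control FFSS replicates 1 to 3, and 7.93 to 8.55% in DKO FFSS libraries. Values without replicate 1 are therefore given beside log2 fold changes that use control FFSS cells, and those for genes other than the 8 were added after seeing the data. Hdac5 had 2421 to 2706 counts in static control cells, against 1461 to 1634 in static DKO cells, and the 2 IDs annotated as Hdac4 had 404 to 550 and 220 to 325 counts, so transcripts of both targeted genes were lower but present in static DKO cells. Under FFSS Hdac5 had 1457 to 1755 counts in control cells, against 1553 to 1687 in DKO cells, and did not pass the test (log2 0.19, adjusted p = 0.0512), but passed without control FFSS replicate 1 (log2 0.27, adjusted p = 0.000485). The 2 Hdac4 IDs had 403 to 860 counts in control FFSS and 214 to 322 in DKO FFSS libraries. Both passed as lower under FFSS, 1 of them beyond 2-fold, against 29.6% of all genes lower. RNA counts alone do not show whether an edit removed the protein, and DKO is used here as the label gives it. Of the 11 markers of osteocytes and osteoblasts, all had counts, and their summed level was 17233 to 20832 CPM (reads of a gene scaled to a common library size) in control static and 53873 to 61494 CPM in DKO static libraries, most of it Col1a1 (14907 to 18274 and 47300 to 54760 CPM). Markers of endothelium and fat, tissues rich in caveolae, summed to at most 1.03 and 2.58 CPM, and those of skeletal muscle to at most 0.500 CPM.

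RNA levels of the 8 genes were set against each other per length, in CPM per kilobase of exon, and protein was not measured. In control static cells, Prkcdbp stood at 102 ± 4.13 (SD, n = 3) and Ptrf at 96.5 ± 0.756 CPM per kb, and the lowest Prkcdbp library (97.5) was just above the highest Ptrf library (97.4). Pacsin2 followed at 50.3 ± 0.691 and Ehd2 at 37.1 ± 1.15 CPM per kb. Cav2 at 17.3 ± 1.16 and Cav1 at 15.8 ± 0.659 CPM per kb overlapped between libraries, and ranked near the 73.4th and 71.6th percentile of 14876 tested genes with a length. Cav3 at 0.468 ± 0.146 and Sdpr at 0.155 ± 0.0183 CPM per kb were far below the rest. The 2 abundant cavins thus gave 62.1% of the summed level of the 8 genes in control static cells, against 10.4% for Cav1 and Cav2. Murc (Cavin4) is a further cavin outside the 8 genes and is not in this sum. It stood at 32.3 ± 0.930 CPM per kb in control static cells, above Cav1 and Cav2, and at 15.2 ± 1.19 in DKO static cells.

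**Figure D1:**
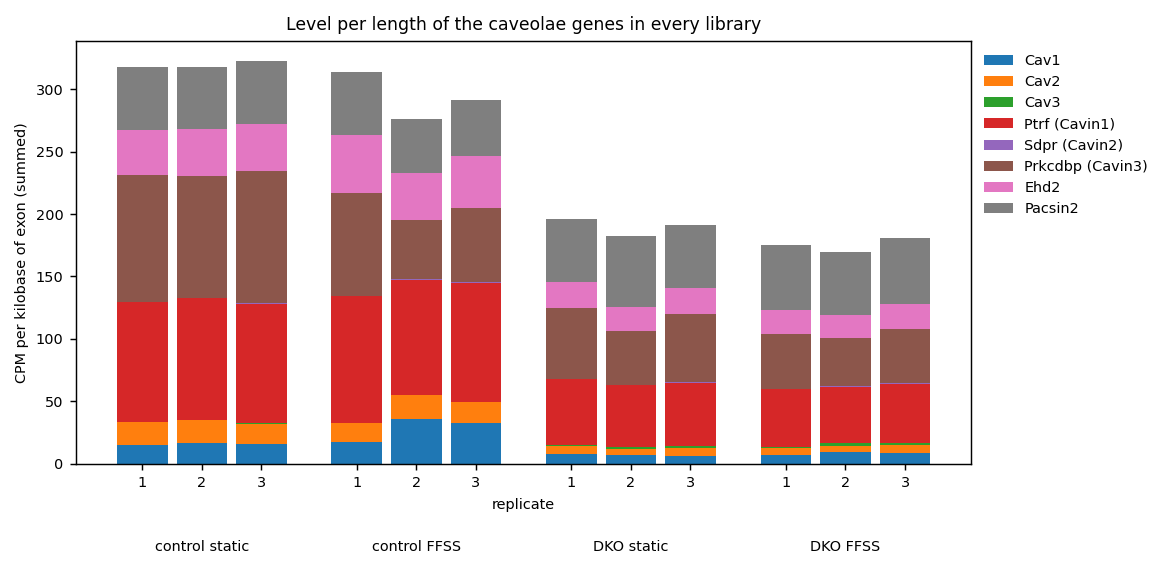
Stacked bars give the level per length (CPM per kilobase of exon) of each caveolae gene in each of the 12 libraries, with replicates 1 to 3 side by side in each group. The summed height was 318 to 323 CPM per kb in control static libraries and 182 to 196 in DKO static libraries, and the grey Pacsin2 segment had 49.5 to 56.3 CPM per kb in both of these groups.

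The summed level was compared next. For control cells it was 318, 318 and 323 CPM per kb without FFSS and 313, 276 and 291 with it. For DKO cells it was 196, 182 and 191 without FFSS and 175, 170 and 181 with it. Every DKO library was thus below every control library. The share of Pacsin2 in the sum was 15.7 ± 0.156% in control static and 27.6 ± 2.88% in DKO static cells (SD, n = 3), while the share of Cav1 was 4.96 ± 0.230% and 3.73 ± 0.335%. Within the caveolin pair, the ratio of Cav1 to Cav2 per length was 0.869, 0.910 and 0.973 for static control cells and 1.116, 1.89 and 1.99 after FFSS. For DKO cells it was 1.31, 1.26 and 1.16 without FFSS and 1.36, 1.62 and 1.32 with it. The ratio was lowest in the 3 control static libraries. In bulk RNA, fewer cells that express a gene and less of its RNA per cell cannot be told apart.

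The first question was how the caveolae genes differed between control and DKO cells. In static cells, 5 of the 8 genes were lower in DKO cells (Cav1, Cav2, Ptrf, Prkcdbp and Ehd2), 2 were higher (Cav3 and Sdpr, both with few counts) and Pacsin2 did not pass. Among all genes tested, 27.2% passed as lower, 27.0% as higher and 15.3% passed with more than a 2-fold change. Here and below, a gene passed at a Benjamini-Hochberg adjusted p under 0.05 over all 14904 genes in edgeR's quasi-likelihood test, and SE is the standard error of the log2 fold change. Over the 8 genes the median log2 fold change was −0.89, against 0.01 over all genes. Under FFSS, 5 were lower (the same 5 genes) and 2 higher (Cav3 and Pacsin2), against 29.6% lower, 27.0% higher and 17.2% beyond 2-fold among all genes.

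**Figure D2:**
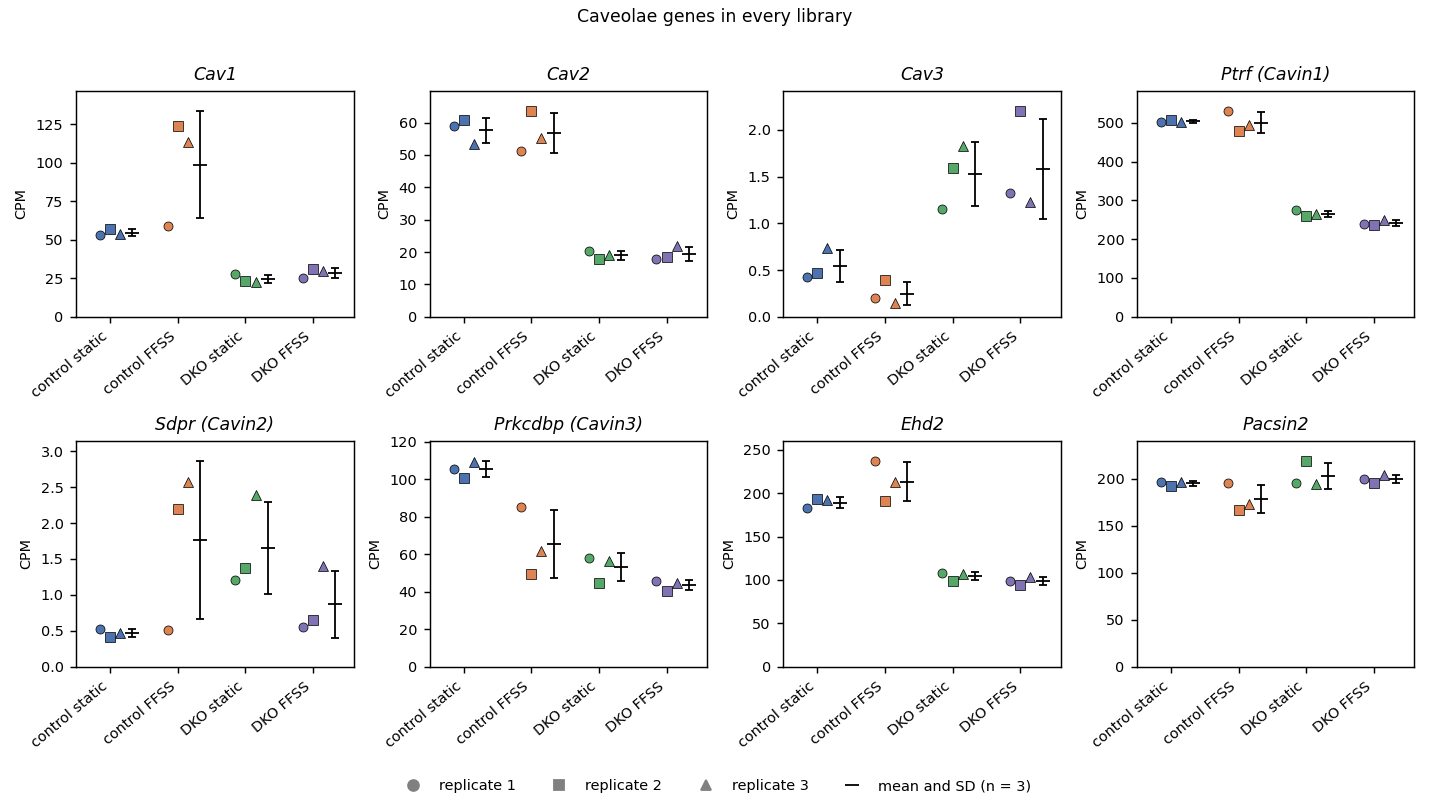
Each panel gives 1 caveolae gene in CPM, with 1 point per library (shape gives the replicate) and the mean and SD of 3 libraries beside each group. Cav1, Cav2, Cav3, Ptrf and Ehd2 separate control from DKO libraries with no overlap. In control FFSS cells replicate 1 lies apart from replicates 2 and 3 for Cav1, Sdpr and Prkcdbp.

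Both coat caveolins were lower in DKO cells. Cav2 had 58.9, 60.8 and 53.4 CPM in the static control cells, against 20.4, 17.7 and 18.9 CPM in the static DKO cells. No library of one line reached the other, and Cav2 was 3.03-fold lower in DKO cells (log2 −1.60, SE 0.10, adjusted p = 1.26e-08). Cav1 had 52.8, 57.0 and 53.5 CPM in the static control cells, against 27.6, 22.9 and 22.6 CPM in the static DKO cells. It was 2.23-fold lower (log2 −1.16, SE 0.24, adjusted p = 0.00197). Under FFSS the difference in Cav1 was 3.46-fold (log2 −1.79, SE 0.24), against 2.93-fold for Cav2 (log2 −1.55, SE 0.10). Without control FFSS replicate 1, the FFSS value was −2.06 for Cav1 and −1.62 for Cav2.

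Cav3, the muscle caveolin, went the opposite way at a level near the limit of counting. The control cells gave 8, 9 and 14 reads without FFSS and 4, 8 and 3 with it. The DKO cells gave 21, 29 and 33 reads without FFSS and 24, 37 and 22 with it. Every DKO library was above every control library. Summed over libraries and scaled to their totals, the ratio of DKO to control was 2.81 in static cells (95% interval 1.84 to 4.39) and 6.31 under FFSS (3.61 to 11.8), where the exact intervals cover counting error only. The fitted log2 fold changes were 1.48 (SE 0.35, adjusted p = 0.00241) and 2.63 (SE 0.40, adjusted p = 6.32e-05), the latter 2.51 without control FFSS replicate 1.

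The cavins were lower in DKO cells apart from Sdpr. Ptrf, the cavin that coat assembly requires, had 502, 509 and 502 CPM in the static control cells, against 275, 259 and 265 CPM in the static DKO cells. The spread within each group was a few percent of the mean, and Ptrf was 1.89-fold lower (log2 −0.92, SE 0.05, adjusted p = 6.70e-09), and 2.07-fold lower under FFSS (log2 −1.006 without control FFSS replicate 1). Prkcdbp, a cavin first described as a binding protein of protein kinase C delta, had 106, 101 and 109 CPM in the static control cells, against 58.2, 44.5 and 56.5 CPM in the static DKO cells. It was 1.98-fold lower (log2 −0.99, SE 0.17, adjusted p = 0.000353). Under FFSS, where control cells also had less Prkcdbp, Prkcdbp was again lower in DKO cells (log2 −0.59, SE 0.17, adjusted p = 0.0108), and −0.35 on the log2 scale without control FFSS replicate 1.

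Sdpr, which shapes the membrane of caveolae, had 10, 8 and 9 counts in the static control cells, against 22, 25 and 43 counts in the static DKO cells. The groups did not overlap, and Sdpr was 3.47-fold higher (log2 1.79, SE 0.57, adjusted p = 0.0182). The call rested on single libraries, with an adjusted p of 0.0572 without control static replicate 2 and 0.0787 without DKO static replicate 3. Under FFSS it had 10, 45 and 52 reads among control libraries, against 10, 11 and 25 among DKO libraries, an overlap (log2 −1.02, SE 0.51, adjusted p = 0.110). That value was −1.45 with an adjusted p of 0.000181 without control FFSS replicate 1, and −1.54 with 0.0469 without DKO FFSS replicate 3.

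The 2 proteins of the neck differed from each other. Ehd2 had 182, 193 and 192 CPM in the static control cells, against 108, 98.7 and 107 CPM in the static DKO cells, 1.81-fold lower with no overlap (log2 −0.86, SE 0.07, adjusted p = 2.80e-07), and it was 2.17-fold lower under FFSS (log2 −1.03 without control FFSS replicate 1). Pacsin2 had 196, 192 and 197 CPM in the static control cells, against 195, 219 and 195 CPM in the static DKO cells. These overlapped, and the 95% interval of the log2 difference ran from −0.08 to 0.20. Under FFSS Pacsin2 was higher in DKO cells by 0.16 on the log2 scale (SE 0.06, adjusted p = 0.0442). That call was lost without any one of control FFSS replicates 2 and 3 or DKO FFSS replicates 1 to 3 (adjusted p 0.0634 to 0.158), and with only the 6 FFSS libraries (adjusted p = 0.0845). The value was 0.23 without control FFSS replicate 1, and with library totals alone it was −0.030.

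**Figure D3:**
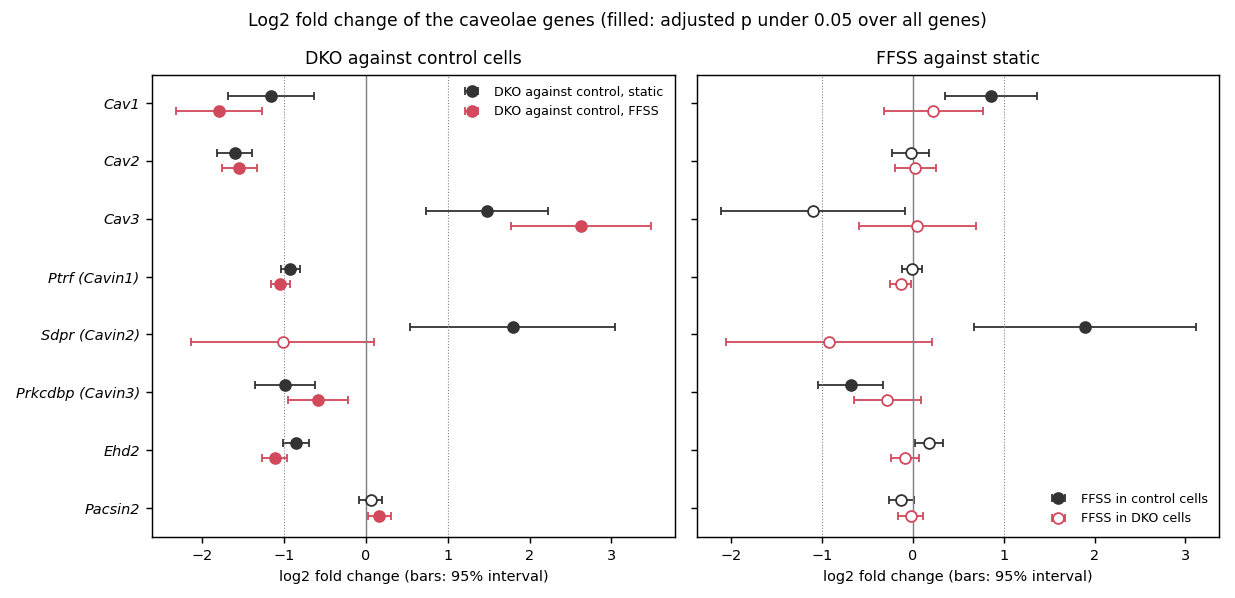
Points give the log2 fold change of each caveolae gene and bars its 95% interval, for DKO against control cells (left, static in black and FFSS in red) and for FFSS against static (right, control cells in black and DKO cells in red). Filled points had an adjusted p under 0.05. On the left Cav1, Cav2, Ptrf, Prkcdbp and Ehd2 lie below 0 in both conditions and Cav3 above, while on the right the filled points are those of Cav1, Sdpr and Prkcdbp in control cells.

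Some other values moved with the genotype. The share of reads outside genes was higher in every DKO static than in every control static library, and with that share as a covariate the 6 genes Cav1, Cav2, Cav3, Ptrf, Prkcdbp and Ehd2 passed in the same direction in both conditions. Sdpr, with the covariate, did not pass in static cells (log2 0.62, adjusted p = 0.255), and Pacsin2 passed as higher there (log2 0.15, adjusted p = 0.0404). The summed osteocyte and osteoblast markers were higher in each DKO library than in each control library, with 6 of the 10 tested markers higher and 1 lower in static cells, against 27.0% and 27.2% of all genes. The summed smooth muscle markers were lower, with 420 to 466 CPM in control static against 237 to 281 CPM in DKO static libraries. Most of this sum was Acta2, a smooth muscle marker and stress fibre actin, which had 335 to 380 against 143 to 184 CPM (log2 −1.15, SE 0.34, adjusted p = 0.0169), while Smtn (log2 0.11, adjusted p = 0.318) and Des (log2 0.35, adjusted p = 0.130) did not pass. Fabp4, the only 1 of the 6 fat markers that was tested, had 43, 38 and 46 counts in the static control cells, against 9, 5 and 22 in the static DKO cells (log2 −1.74, SE 0.41, adjusted p = 0.00232). Pparg, another fat marker, went the other way with few counts: 0, 1 and 1 in control static against 6, 7 and 9 in DKO static libraries. Under FFSS it had 1, 0 and 2 counts in control against 11, 16 and 8 in DKO libraries. The part of these markers in the caveolae results was not tested.

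The second question was what 3 h of FFSS did in control cells. Of the 8 genes, Cav1 and Sdpr passed as higher and Prkcdbp as lower, with Sdpr beyond 2-fold. Among all genes, 17.7% passed as higher, 18.1% as lower and 5.93% beyond 2-fold, so the count of 3 in 8 was near that of all genes. Cav1 had 52.8, 57.0 and 53.5 CPM in static and 59.0, 124 and 113 CPM in FFSS libraries 1 to 3. Replicate 1 was just above the static libraries and replicates 2 and 3 were far above them. The fitted change was 1.81-fold (log2 0.86, SE 0.23, adjusted p = 0.0158), or 1.123 on the log2 scale without FFSS replicate 1. It did not pass without FFSS replicate 2 (0.66, adjusted p = 0.0519) or without FFSS replicate 3 (0.75, adjusted p = 0.0585), nor with only the 6 libraries of the comparison (0.87, adjusted p = 0.0665).

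Sdpr had 10, 8 and 9 counts in static and 10, 45 and 52 counts in FFSS libraries. Replicate 1 lay within the static range, so the groups overlapped, and the summed ratio was 3.76 (95% interval 2.45 to 5.97, counting error only). The fitted log2 fold change was 1.89 (SE 0.56, adjusted p = 0.0212), and 2.32 without FFSS replicate 1. The call was lost without any one of the 3 static libraries or without FFSS replicate 2 or 3 (adjusted p 0.0549 to 0.0875), with only the 6 libraries of the comparison (adjusted p = 0.0603), and with limma-voom (log2 1.57, adjusted p = 0.0829). Prkcdbp had 106, 101 and 109 CPM in static and 85.2, 49.7 and 61.6 CPM in FFSS libraries. All FFSS libraries were below all static ones, by 1.61-fold in the fit (log2 −0.69, SE 0.16, adjusted p = 0.00855), and by 0.92 on the log2 scale without FFSS replicate 1.

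The other members did not pass under FFSS in control cells. Cav2, the neighbour of Cav1, had 51.3, 63.5 and 55.3 CPM in FFSS libraries against 53.4 to 60.8 in static ones, with a 95% interval of the log2 change from −0.23 to 0.18 and a value of 0.042 without FFSS replicate 1. Ptrf had 530, 478 and 495 CPM, its interval ran from −0.12 to 0.11, and the value was −0.052 without FFSS replicate 1. Cav3 had 4, 8 and 3 counts against 8, 9 and 14, with a summed ratio of 0.460 (95% interval 0.231 to 0.877, counting error only) and a fitted log2 change of −1.10 (adjusted p = 0.0832), or −0.99 without FFSS replicate 1 (adjusted p = 0.115). Ehd2 had 237, 191 and 212 CPM (log2 0.17, SE 0.07, adjusted p = 0.0749) and was 0.092 without FFSS replicate 1 (adjusted p = 0.161). It passed in 4 alternatives, at 0.25 without FFSS replicate 2 (adjusted p = 0.0157), 0.29 with library totals alone (adjusted p = 0.00277), 0.19 with the filterByExpr filter (adjusted p = 0.0473) and 0.33 with the share of reads outside genes as a covariate (adjusted p = 0.0109). Pacsin2 had 195, 167 and 173 CPM (log2 −0.13, SE 0.06, adjusted p = 0.135) and passed at −0.20 without FFSS replicate 1 (adjusted p = 0.00211).

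The share of reads outside genes ran with these values: it was 5.87% in FFSS replicate 1, where Cav1 was near the static level, and 9.19 and 10.04% in replicates 2 and 3. With this share as a covariate, the fitted FFSS effect in control cells was −0.027 for Cav1 (adjusted p = 0.930), −0.36 for Sdpr (adjusted p = 0.779) and −0.25 for Prkcdbp (adjusted p = 0.429). The share was higher in each control FFSS library than in each control static one, so the 2 overlap in what they describe. The summed osteocyte and osteoblast markers were 17233 to 20832 CPM in control static and 6070 to 17104 CPM in control FFSS libraries, and of the 10 tested markers 3 passed as lower (Col1a1, Sp7 and Runx2) and 1 as higher (Pdpn), against 18.1% and 17.7% of all genes. Sp7, an osteoblast transcription factor, had 547, 514 and 552 CPM in static and 322, 97.7 and 116 CPM in FFSS libraries (log2 −1.59, SE 0.38, adjusted p = 0.0129, and −2.33 without FFSS replicate 1). Col1a1, the type I collagen chain, had 14913, 5284 and 5475 CPM in FFSS libraries (log2 −1.002, SE 0.35, adjusted p = 0.0496, and −1.67 without FFSS replicate 1). Runx2, another osteoblast transcription factor, had 164, 103 and 106 CPM in FFSS libraries (log2 −0.66, SE 0.14, adjusted p = 0.00444, and −0.91 without FFSS replicate 1). For these 3 markers, and for Phex and Alpl, which did not pass, FFSS replicate 1 lay nearest to the static libraries. Dmp1 and Bglap did not pass and differed, with replicate 1 above the static libraries and replicates 2 and 3 below them. Dmp1 had 23.1 to 37.6 CPM in static and 96.7, 15.7 and 15.7 CPM in FFSS libraries. Bglap had 13.2 to 17.4 CPM in static and 23.0, 6.69 and 8.12 CPM in FFSS libraries. Pdpn was higher in each of the 3 FFSS libraries than in each static one. Acta2, named after its values were seen, had 335 to 380 CPM in control static and 346, 1012 and 976 CPM in control FFSS libraries, with replicate 1 within the static range. Of the other 4 smooth muscle markers, Myh11 and Cnn1 had at most 10 and 7 counts in any library. Smtn and Des were expressed and did not follow Acta2, with 58.0, 80.1 and 73.1 CPM of Smtn in control FFSS against 78.2 to 79.7 CPM in control static libraries (log2 −0.16, adjusted p = 0.167, and −0.043 without FFSS replicate 1), and 6.94, 4.49 and 3.86 CPM of Des against 6.63 to 8.30 CPM (log2 −0.51, adjusted p = 0.0563, and −0.79 with 0.000107 without FFSS replicate 1). The summed level of the 5 markers, most of it Acta2, was 420 to 466 CPM in control static and 411 to 1097 CPM in control FFSS libraries. The part of both marker lists in the results was not tested.

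In DKO cells, 0 of the 8 genes passed under FFSS in edgeR's quasi-likelihood test, and 0 passed with limma-voom or with DESeq2. Among all genes 0.376% passed as higher, 0.497% as lower and 0.0872% beyond 2-fold, so few calls were made for any gene in the fit of all 12 libraries. That fit shares 1 estimate of the spread over the 4 groups, with control FFSS replicate 1 included. With only the 6 DKO libraries 1777 genes passed, against 130 in the full fit. The count of 0 in 8 therefore does not show that these genes lacked a response in DKO cells. At an unadjusted p under 0.05, 1 member (Ptrf) was lower: it had 275, 259 and 265 CPM in static and 240, 236 and 250 CPM in FFSS libraries (log2 −0.14, SE 0.05, adjusted p = 0.284), and it passed with only these 6 libraries (log2 −0.13, adjusted p = 0.0442). Cav1 had 27.6, 22.9 and 22.6 CPM in static and 24.9, 30.9 and 29.7 CPM in FFSS libraries, which overlapped, with a 95% interval of the log2 change from −0.32 to 0.77. Sdpr had 22, 25 and 43 counts in static and 10, 11 and 25 in FFSS libraries (log2 −0.92, SE 0.52, adjusted p = 0.507), and passed at −1.58 with the share of reads outside genes as a covariate (adjusted p = 0.00390). Prkcdbp had 45.5, 40.5 and 44.8 CPM under FFSS, which overlapped with static cells (log2 −0.28, SE 0.17, adjusted p = 0.540). The log2 change was 0.027 for Cav2 (SE 0.10, adjusted p = 0.952) and 0.049 for Cav3 (SE 0.30, adjusted p = 0.973). For the neck proteins it was −0.086 for Ehd2 (SE 0.07, adjusted p = 0.701) and −0.022 for Pacsin2 (SE 0.06, adjusted p = 0.937).

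Whether the FFSS effect differed between the lines was tested as an interaction, the effect in DKO minus that in control cells. Of the 8 members, 0 passed in edgeR, limma-voom or DESeq2, against 2.28% of all genes higher, 1.68% lower and 0.651% beyond 2-fold. At an unadjusted p under 0.05 there were 2, Sdpr (log2 −2.81, SE 0.77, adjusted p = 0.0658) and Ehd2 (log2 −0.26, SE 0.10, adjusted p = 0.153). Ehd2 passed at −0.37 with library totals alone (adjusted p = 0.0323) and at −0.36 with the share of reads outside genes as a covariate (adjusted p = 0.0186), and Ptrf at −0.24 with library totals alone (adjusted p = 0.04997). The value for Cav1 was −0.63 (SE 0.33, adjusted p = 0.275) with a 95% interval from −1.37 to 0.11, so a smaller effect in DKO cells was not shown with all libraries. The other differences were 0.051 for Cav2 (SE 0.14, adjusted p = 0.853), 1.15 for Cav3 (SE 0.56, adjusted p = 0.229), −0.13 for Ptrf (SE 0.08, adjusted p = 0.322), 0.40 for Prkcdbp (SE 0.23, adjusted p = 0.318) and 0.11 for Pacsin2 (SE 0.09, adjusted p = 0.499). Without control FFSS replicate 1, 4 members passed: Cav1 at −0.90 (adjusted p = 3.80e-07), Sdpr at −3.24 (adjusted p = 2.95e-06), Prkcdbp at 0.64 (adjusted p = 0.00183) and Pacsin2 at 0.18 (adjusted p = 0.0490). The others were −0.015 for Cav2, 1.03 for Cav3, −0.084 for Ptrf and −0.18 for Ehd2. In that setting 5630 genes passed in all, against 591 with all libraries, so the members moved with a large part of the genes.

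Relatives of the coat and neck proteins were read in the same fit. Of 6 such genes, 3 were lower and 0 higher in DKO static cells (Murc, Ehd1 and Pacsin3), against 27.2% of all genes lower and 27.0% higher. Under FFSS in control cells 2 of the 6 were higher and 1 lower, against 17.7% and 18.1% of all genes. Murc (Cavin4), the cavin of muscle, had 68.5, 64.8 and 65.9 CPM in static control cells. The 3 control FFSS libraries had 29.1, 31.4 and 31.5 CPM, the static DKO ones 31.8, 28.6 and 33.4 CPM, and the DKO FFSS ones 27.0, 28.2 and 28.0 CPM. Control static libraries stood alone at the high level, and here FFSS replicate 1 lay with replicates 2 and 3. Murc fell under FFSS in control cells (log2 −1.11, SE 0.07, adjusted p = 3.30e-07), was lower in DKO than in control static cells (log2 −1.09, SE 0.07, adjusted p = 1.43e-08), and differed by 0.94 in the interaction (SE 0.10, adjusted p = 0.000267). Without FFSS replicate 1 the fall was 1.08 and the interaction 0.90 on the log2 scale. Ehd1 and Ehd4, which act in endosomal recycling and are named after their values were seen, rose under FFSS in control cells by 0.36 (SE 0.07, adjusted p = 0.00178) and 0.56 (SE 0.09, adjusted p = 0.000473) on the log2 scale, or by 0.45 and 0.69 without FFSS replicate 1.

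**Figure D4:**
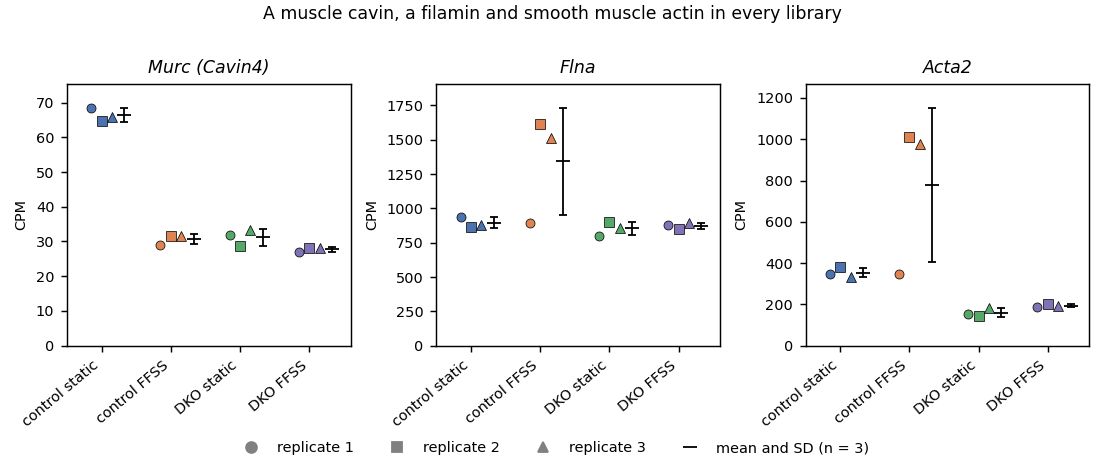
Levels in CPM of Murc, Flna and Acta2 in the 12 libraries, with 1 point per library (shape gives the replicate) and the mean and SD of 3 libraries beside each group. For Murc the 3 control FFSS libraries lie together at 29.1 to 31.5 CPM, below the control static ones at 64.8 to 68.5, while for Flna and Acta2 control FFSS replicate 1 lies with the static libraries.

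Other proteins of caveolae and of a second uptake route are given by their counts. In DKO static against control static cells, 1 of 2 flotillins, 2 of 3 dynamins and 8 of 11 clathrin coat genes passed as lower, with 0 higher in these 3 lists, against 27.2% lower and 27.0% higher among all genes. Cltb, a clathrin light chain, was lower at log2 −1.007 (SE 0.08, adjusted p = 2.02e-07), and Dnm3, a dynamin with 15 to 78 counts, was lower under FFSS (log2 −1.28, SE 0.32, adjusted p = 0.00352; −1.57 without control FFSS replicate 1) and did not pass in static cells (log2 −0.55, SE 0.31, adjusted p = 0.158). Of 7 kinases and filamins tied to caveolae, 1 was higher and 2 lower. Fyn, a Src family kinase, was the higher one at 337 to 382 CPM in DKO static against 158 to 176 CPM in control static libraries (log2 1.08, SE 0.12, adjusted p = 9.05e-06). Under FFSS in control cells 3 of the 7 passed as higher (Src, Abl2 and Flna) and 2 as lower (Fyn and Yes1), against 17.7% and 18.1% of all genes. Flna, the filamin that ties caveolae to actin, had 865 to 940 CPM in control static and 896, 1617 and 1515 CPM in control FFSS libraries, which overlapped (log2 0.59, SE 0.17, adjusted p = 0.0203, and 0.81 without FFSS replicate 1).

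Of 14 receptors, channels and enzymes reported in caveolae, 12 were tested, and 4 were higher and 5 lower in DKO static cells, against 27.0% and 27.2% of all genes. Egfr, the epidermal growth factor receptor, had 354, 341 and 375 counts in the static control cells, against 100, 87 and 94 in the static DKO cells (log2 −1.86, SE 0.12, adjusted p = 2.45e-08). Kcnma1, a calcium-activated potassium channel, had 401, 331 and 343 against 9, 7 and 6 counts (log2 −5.52, SE 0.69, adjusted p = 7.89e-05), and 297, 71 and 77 counts in control FFSS libraries. Ptgis, prostacyclin synthase, went the other way, with 159, 131 and 187 counts in static control cells, against 3035, 3051 and 3172 in static DKO cells (log2 4.35, SE 0.35, adjusted p = 4.62e-06). For these 12 tested genes the median was −0.03 on the log2 scale, against −0.89 for the 8 structural genes and 0.01 for all genes.

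**Figure D5:**
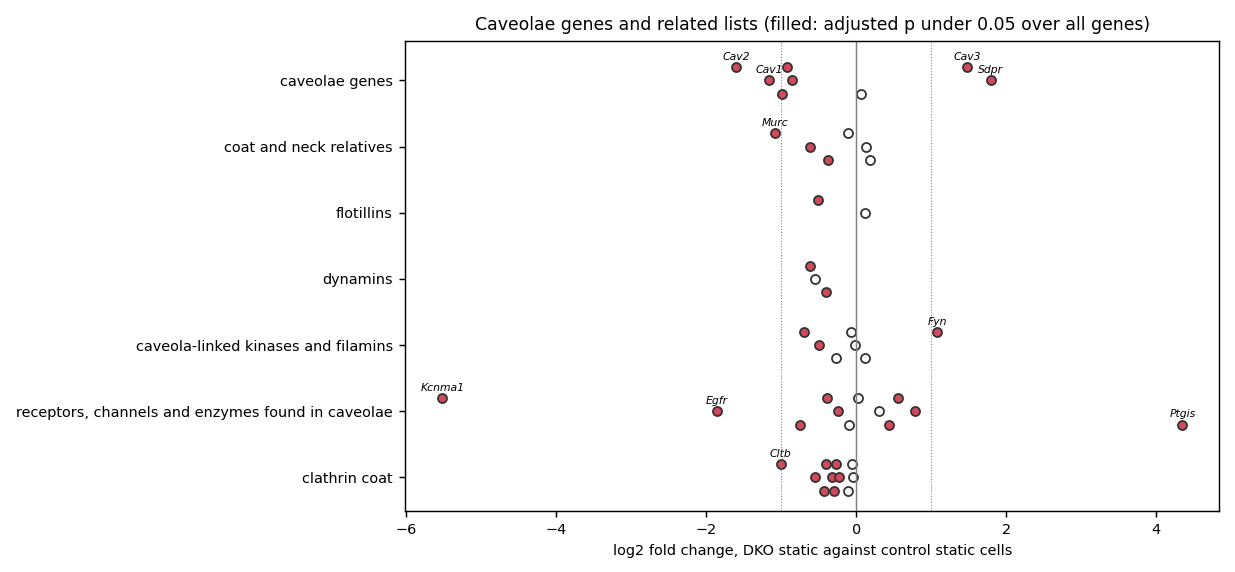
Each point is 1 gene and gives its log2 fold change in DKO static against control static cells, in rows for the caveolae genes and 6 related lists, and filled points had an adjusted p under 0.05. Names are given beyond 2-fold. Clathrin coat genes lie at or below 0, while the receptors, channels and enzymes spread from Kcnma1 at −5.52 to Ptgis at 4.35.

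Across the 12 libraries, log2 CPM of Ptrf had a Pearson r of 0.988 with Ehd2 and 0.982 with Cav2, and Cav2 of 0.964 with Ehd2. Cav1 had 0.897 with Cav2 and 0.396 with Prkcdbp, and Pacsin2 was negative against Cav1 at −0.838. These are descriptions, since the points share the 4 groups. Outside the 8 genes, those most like Cav1 were Basp1 (r = 0.996), Plscr2 (0.994) and Cdk6 (0.993), and those most like Ptrf were Capns1 (0.997), Ptprd (0.996) and Gli2 (0.996), over the same 12 libraries.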

How the data were processed

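RNA of Ocy454 cells was collected as total RNA, and mRNA isolated from it was sequenced by the authors as single-end reads (BGISEQ). STAR was the aligner, mm9 the genome, and HTSeq the counter for Ensembl genes, of which the study names more than 1 version. Values deposited by the authors are whole-number counts per gene (37583 IDs, 98.9% with a symbol in the mm9 annotation used), neither scaled nor filtered. Counting without strand leaves out reads that several genes share or that align to several places. Summary lines of HTSeq were kept out of library totals.

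Groups and replicate numbers came from the sample titles. Genes with 0 counts in 2 or more libraries were removed, as in the study, which left 14904 of 24360 genes with any count. The 12 libraries were fitted as 4 groups with edgeR 4.0.16 (R 4.3.3) by robust quasi-likelihood with TMM scaling, without a replicate block, and tested two-sided with Benjamini-Hochberg adjustment. A gene was called beyond 2-fold when it also passed at an adjusted p under 0.05. The SE was derived from the fold change and its test statistic. CPM used TMM-scaled totals, and levels per length used the merged exons of each gene. Promoter windows were RefSeq's (GRCm38.p6) and were not combined with mm9 coordinates. Intervals of summed counts are exact binomial ones at 95%, and since PCR reads carry no molecular identifiers they cover counting error only. Intervals of log2 fold changes come from the fit and rest on the spread between libraries.

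The 8 genes and the related lists were chosen with earlier results of these data known. All 8 genes are named in each comparison. Of the genes called in other lists, some are named and others enter only the counts. Hdac4, Hdac5 and, for Cav1 and Ptrf, the 3 genes with the highest correlation are named too. Picalm, Flna, Src, Abl2, Yes1, Acta2, Smtn, Des, Ehd1, Ehd4, Dmp1, Bglap, Phex, Alpl, Sost, Mepe, Pdpn and Pparg were named after their values were seen. Alternatives were other scalings, filters, subsets of libraries, a replicate block, the share of reads outside genes as a covariate, limma-voom 3.58.1, DESeq2 1.42.0 and each library left out. Values of 13 related and marker genes without control FFSS replicate 1 were added after seeing the data.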

Additional observations from a re-analysis of the deposited data

Results flagged for a closer look

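Among the 8 caveolae genes, none had an interaction that passed with all 12 libraries in edgeR's quasi-likelihood test. Among the related genes, 1 of 6 coat and neck relatives and 1 of 11 clathrin coat genes did, as did 1 of 3 IDs of the targeted genes, against 2.28% of all genes higher and 1.68% lower. None of the tested flotillins, dynamins, kinases and filamins, or receptors, channels and enzymes passed. The 3 genes are given here because their FFSS effect differed between DKO and control cells in the test of that difference. For Murc, the muscle cavin, the effect of FFSS was −1.11 (SE 0.07) in control and −0.17 (SE 0.07) in DKO cells on the log2 scale, a difference of 0.94 (SE 0.10, adjusted p = 0.000267). For Picalm, a clathrin assembly protein, it was −0.55 (SE 0.05) in control and −0.10 (SE 0.05) in DKO cells, a difference of 0.45 (SE 0.08, adjusted p = 0.00804). For Hdac5, one of the targeted genes, it was −0.71 (SE 0.08) in control and 0.14 (SE 0.08) in DKO cells, a difference of 0.85 (SE 0.11, adjusted p = 0.00152). In DKO static cells Murc and Hdac5 were already near the level of control FFSS cells, at 28.6 to 33.4 against 29.1 to 31.5 CPM and at 80.2 to 90.8 against 71.1 to 90.2 CPM. Without control FFSS replicate 1 the differences were 0.90 for Murc, 0.47 for Picalm and 0.93 for Hdac5, a setting added after seeing the data.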

How the results depend on the processing

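Differences of Cav1, Cav2, Cav3, Ptrf, Prkcdbp and Ehd2 between DKO and control cells passed in the same direction under all 15 alternatives in both conditions. The count of caveolae genes that passed, 3 for FFSS in control cells and 0 for FFSS in DKO cells and for the interaction, was 1, 1 and 1 with the share of reads outside genes as a covariate, and 1 for either FFSS comparison with only the 6 libraries of the comparison. For the interaction it was 2 with library totals alone. Leaving out 1 library gave 1 (without control FFSS replicate 3) to 4 (without control FFSS replicate 1) for FFSS in control cells and 0 to 4 (without control FFSS replicate 1) for the interaction. Of the single-gene values, 570 kept direction and side of the threshold, 21 lost and 19 gained a call, and 26 changed sign. Replicate numbers did not pair the libraries (correlation of deviations 0.00226 for the same and −0.00116 for different numbers). With the replicate block, 1 gene passed in the interaction (Sdpr, −2.76, adjusted p = 0.0271), Sdpr passed for DKO against control under FFSS (−0.99, adjusted p = 0.0395), and Pacsin2 no longer did (0.16, adjusted p = 0.0626). The block changed no other call of these genes.

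Log2 values changed sign as follows. With the covariate, FFSS in control cells gave −0.027 for Cav1, 0.077 for Ptrf, −0.36 for Sdpr and 0.021 for Pacsin2, and FFSS in DKO cells −0.051 for Cav1, −0.031 for Cav2 and 0.029 for Pacsin2. With library totals alone, under which the median of all genes was 0.13 for FFSS in control cells, −0.13 in the interaction and −0.25 in DKO against control FFSS cells, FFSS in control cells gave 0.10 for Cav2 and 0.11 for Ptrf, the interaction −0.066 for Cav2 and −0.0042 for Pacsin2, and DKO against control −0.025 for Pacsin2 in static cells and −0.030 under FFSS. Another filter (filterByExpr) gave 0.0077 for Ptrf under FFSS in control cells. Leaving out 1 library gave −0.11 to 0.042 for Cav2 and −0.052 to 0.024 for Ptrf under FFSS in control cells, −0.068 to 0.084 for Cav2, −0.25 to 0.20 for Cav3 and −0.053 to 0.035 for Pacsin2 under FFSS in DKO cells, −0.043 to 0.14 for Cav2 in the interaction, and −1.02e-05 to 0.088 for Pacsin2 in DKO against control static cells. The interaction of Smtn, 0.037 with all libraries, was −0.084 without control FFSS replicate 1. Apart from Cav1 and Sdpr under the covariate, none of these values had passed the test in the full fit except Pacsin2 under FFSS. The cause was not tested. Over all genes, 5338 passed for FFSS in control cells, against 2463 with only 6 libraries, 2290 with the covariate and 8222 without control FFSS replicate 1. For FFSS in DKO cells 130 passed, against 1777 and 1483 in the first 2 of these settings, 399 with DESeq2, 70 with the block and 13 to 35 with 1 library left out. For the interaction 591 passed, against 1124 with DESeq2 and 181 to 5630 with 1 library left out. At 3 to 52 counts per library, counting limits Cav3 and Sdpr.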
